A study of Mus musculus with 8 samples.

Results

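The nuclear-encoded subunits of oxidative phosphorylation were followed in Lineage- Sca-1+ c-Kit+ (LSK) cells, the stem and progenitor fraction of mouse bone marrow. Members were chosen by symbol (the Nduf, Sdh, Uqcr, Cox4 to Cox8 and Atp5 series, Cyc1 and Cycs). The rule used no comparison but was set with earlier results of these data known. Of 88 matching symbols, 83 reached 1 FPKM (fragment number scaled to transcript length and to library size) in at least 2 libraries, out of 11931 genes that did so. They comprised 37 genes of complex I, 4 of complex II, 9 of complex III, 16 of complex IV, 16 of complex V, and Cycs. Of the 5 others, Ndufa4l2, Cox8b and Cox8c were listed at 0 throughout, and Cox7b2 and Atp5g2 reached at most 0.813 and 0.485 FPKM. The lowest mean among the members was 2.202 FPKM, for Cox6a2.

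All mice were C57BL/6 males of 12 to 13 weeks, fasted for over 14 hours and injected in the morning into a vein for 7 days, with food by day, and marrow was taken on day 8. The glucose group received 2 g/kg glucose. The glucose+lipid group received 2 g/kg glucose with 6 mL/kg of a 20% lipid emulsion (Intralipid), and controls received PBS. Each treatment had 2 libraries and PBS had 4, lettered H, I, J and K, each made from about 10000 sorted cells. The series text gives each treatment its own controls without naming them. The letters H and I and a tag in the column names are shared by PBS H, PBS I and glucose+lipid, which leaves PBS J and K for glucose. That pairing is inferred from names, so both control pairs are given side by side for the subunit genes as a set. No label gives a batch or date. The labels call the samples biological replicates and do not say whether a sample was 1 mouse or a pool, so p-values measure the spread between these samples only.

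Oxidative phosphorylation takes place in the inner mitochondrial membrane. Complex I (NADH dehydrogenase) and complex II (succinate dehydrogenase) pass electrons to coenzyme Q, complex III passes them to cytochrome c, and complex IV passes them to oxygen. Complexes I, III and IV pump protons, and complex V (ATP synthase) lets them flow back to make ATP. Blood stem cells are known for low reliance on this pathway at rest, and their differentiating progeny for a higher one. In bulk RNA such as this, fewer cells of a type and less RNA per cell cannot be told apart.

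The symbol rule did not equal complex membership. Cox4nb encodes a subunit of the ER membrane complex (Emc8), Atp5s and Atp5sl encode assembly-related proteins of similar name, and Ndufa4 is now counted in complex IV. The 13 subunits encoded in mitochondrial DNA were not analysed here. A pair of complex V-associated proteins lies outside the rule, Usmg5 and 2010107E04Rik. Their values are given with the other pathway genes.

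All 10 LSK markers were present, at a summed 1635 to 2076 FPKM per library. Neutrophil markers summed to 64634 FPKM in glucose+lipid replicate 1 and to 136 to 441 FPKM in the other 7 libraries. All 8 of these markers reached 1 FPKM in some library, and none was at 0 in every library. Erythroid markers (9 genes) summed to 1223 and 2235 FPKM in glucose+lipid and to 280.4 to 642 FPKM elsewhere. The microRNA locus Mir682 alone held 18.5% to 24.2% of the summed FPKM of a library. Estimated depth was 5770000 to 8390000 fragments per library, with 5930000 in PBS J and 5980000 in PBS K.

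The subunit genes were among the more abundant transcripts of LSK cells. Their median level over the 8 libraries was 228 FPKM, against 15.8 FPKM for all tested genes. A mean of 100 FPKM or more was found in 63 of 83 members and in 9.72% of tested genes. By complex, the median was 211 FPKM for I, 293 for II, 356 for III, 152 for IV and 302 for V. Together the members held 2.99% to 3.87% of the summed FPKM of a library, lowest in glucose+lipid replicate 1 and highest in PBS J.

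**Figure D1:**
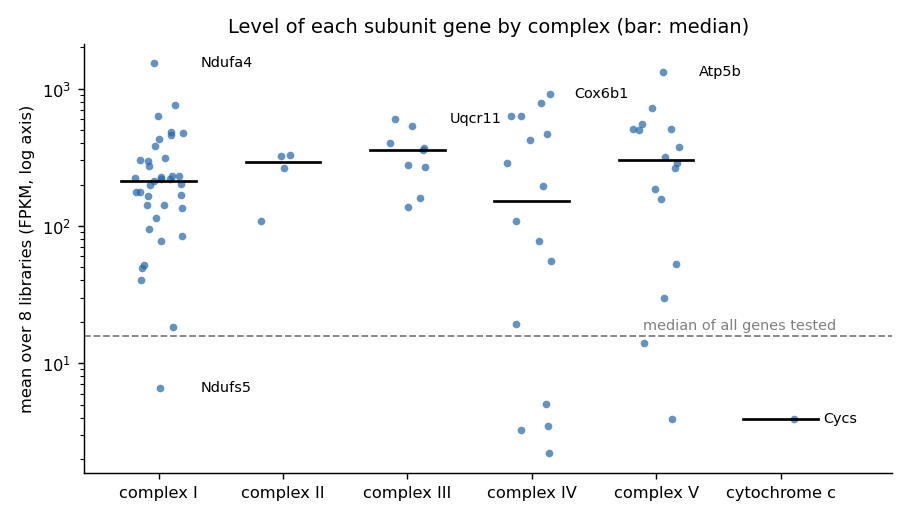
Mean level over 8 libraries (FPKM, log axis) of each tested subunit gene, by complex. Each point is a gene, each bar the median of a complex, and the dashed line the median of all tested genes (15.8 FPKM). Most genes lie above 100 FPKM, with a tail of 7 under 10 FPKM in complexes I, IV and V and for Cycs.

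Ndufa4 had the highest level, at 1547 and 1499 FPKM in glucose, 1294 and 1431 in glucose+lipid, 1494 and 1540.0 in PBS H and I, and 1728 and 1643 in PBS J and K. Atp5b, the catalytic beta subunit of the ATP synthase head, followed with a mean of 1326 FPKM. Next came the complex IV subunits Cox6b1 (913 FPKM) and Cox4i1 (786 FPKM), and the accessory complex I subunit Ndufa3 (754 FPKM). In complex I the 7 core subunits, which carry the flavin and iron-sulfur clusters or hold them, ranged from 49.0 to 310.0 FPKM.

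Tissue-specific isoforms were far below their widespread partners. Cox4i2, the lung isoform, averaged 5.05 FPKM against 786 FPKM for Cox4i1. Cox6a2, the heart and muscle isoform, averaged 2.202 FPKM against 632 FPKM for Cox6a1. Cox7a1, another muscle isoform, was listed at 0 in glucose+lipid replicate 1 and PBS J and at no more than 10.3 FPKM elsewhere, against a mean of 287 FPKM for Cox7a2. Cox6b2, described in testis, was higher than those isoforms, with 48.4 to 60.7 FPKM in the 8 libraries, 55.3 FPKM on average against 913 FPKM for Cox6b1. Cox8b was listed at 0 in every library and Cox8a averaged 635 FPKM.

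The c ring of ATP synthase is built from 1 protein that 3 genes encode with different import signals. Atp5g3 averaged 723 FPKM and Atp5g1 averaged 52.5 FPKM. Atp5g2 was listed at 0.485 FPKM in glucose+lipid replicate 2 and at 0 in the other 7 libraries. Its transcripts shared 38.3% of their 50-base words with transcripts of other genes.

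Several subunits that every respiring cell needs were listed at low levels. They were Atp5l (3.95 FPKM), a membrane subunit of complex V, Cycs (3.94 FPKM), cytochrome c itself, and Cox7c (3.49 FPKM), a small complex IV subunit. Over 50-base words, 68.5% of Atp5l, 28.2% of Cycs and 23.0% of Cox7c also occurred in transcripts of other genes. The transcripts sharing words included 12, 10 and 3 annotated pseudogenes respectively. How the authors' counting shared such reads is not given in the sources used here. These 3 levels are therefore uncertain, and the part of shared sequence in them was not tested. Shared words did not always go with low values, since Uqcrb, with 43.2% shared, averaged 371 FPKM.

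Promoter sequence was examined because nuclear respiratory factor 1 (NRF1), an activator named for its sites in respiratory chain genes, is a known regulator of this gene set. RefSeq promoters (GRCm38.p6, 250 bases before to 50 after the start site) were matched for 68 of the members. The NRF1-type letters, GCGCA followed by any base and then GCGC, were read on both strands with a palindromic match counted once. They occurred in 16 of them, or 23.5%. The share was 12.0% among 9489 tested genes with a promoter and 4.60% among all 32851 promoters. The YY1-type letters AAGATGGC occurred in 16.2% of members, 5.56% of tested genes and 2.75% of all promoters. The ETS-type letters CCGGAAG occurred in 23.5%, 21.1% and 8.86%, and the SP1-type letters GGGGCGGGG in 16.2%, 24.7% and 11.4%. A match describes letters in the window and is not evidence of binding.

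The stretches below show where the match falls in 5 of these members from complexes I, IV and V, 5′ to 3′ on the gene's strand, with the NRF1-type letters in capitals. They are Ndufs5 (chr4:123718203-123718352, minus strand), Ndufb4 (chr16:37654454-37654603, minus), Ndufa11 (chr17:56717686-56717761, plus), Cox6a1 (chr5:115348982-115349129, minus) and Atp5h (chr11:115419963-115420112, minus), all on GRCm38.p6. Each lies upstream of the gene and outside annotated exons. Counted from the RefSeq start site, the matches begin at -98 in Ndufs5, -191, -79 and -22 in Ndufb4 (only the first lies in the stretch printed), -60 in Ndufa11, -162 and -117 in Cox6a1, and -141 in Atp5h.
Ndufs5: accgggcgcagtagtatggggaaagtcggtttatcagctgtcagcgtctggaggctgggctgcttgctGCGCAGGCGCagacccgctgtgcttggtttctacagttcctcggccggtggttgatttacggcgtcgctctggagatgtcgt
Ndufb4: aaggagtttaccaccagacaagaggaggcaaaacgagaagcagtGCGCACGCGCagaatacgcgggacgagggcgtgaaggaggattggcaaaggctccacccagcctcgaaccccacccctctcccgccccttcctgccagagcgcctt
Ndufa11: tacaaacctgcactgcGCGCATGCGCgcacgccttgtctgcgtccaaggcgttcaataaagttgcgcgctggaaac
Cox6a1: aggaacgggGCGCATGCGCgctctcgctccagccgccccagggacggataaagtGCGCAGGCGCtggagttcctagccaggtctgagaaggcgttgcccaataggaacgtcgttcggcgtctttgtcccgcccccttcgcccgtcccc
Atp5h: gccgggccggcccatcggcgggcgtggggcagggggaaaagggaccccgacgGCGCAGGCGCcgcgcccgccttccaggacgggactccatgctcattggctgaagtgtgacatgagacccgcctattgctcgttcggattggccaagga

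These genes differed widely in level, with means of 40.6 FPKM for Ndufa11, 51.8 for Ndufb4, 158 for Atp5h and 632 for Cox6a1, and with Ndufs5 listed near 0 in some libraries. The 16 members with the letters had a median level of 246 FPKM and the 52 without them 215 FPKM. PBS J and K were both above the other 6 libraries in 10 of the 16 and in 32 of the 52. The share was 12.0% over all tested genes and 37.2% over those with a mean of 100 FPKM or more.

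No subunit gene passed the test in any comparison between groups. Linear models in limma on log2(FPKM + 1), fitted to all 11931 genes with Benjamini-Hochberg adjustment at 0.05, called 0 of 83 members for glucose against PBS J and K. Of all tested genes, 0.0922% were called higher and 0.00838% lower in that comparison. The count was also 0 of 83 for glucose+lipid against PBS H and I, where 0.0587% of genes were called higher and 0.0168% lower. It was 0 of 83 for PBS H and I against J and K (0.0419% higher, 0.00838% lower) and for glucose+lipid against glucose (0.0168% higher, 0.0% lower). At an unadjusted p under 0.05, limma gave 40 members for glucose against PBS J and K, where 14.9% of all genes met that mark. It gave 42 members for PBS H and I against J and K (17.2% of all genes). It gave 3 for glucose+lipid against PBS H and I (Ndufb6, Ndufs3 and Ndufs5; 11.8%) and 4 for glucose+lipid against glucose (Ndufa3, Ndufb3, Ndufs5 and Atp5k; 5.35%).

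The clearest pattern over the members was a difference between the control pairs. Both PBS J and PBS K lay above all 6 other libraries in 49 of 83 members, against 12.0% of all tested genes, and below them in 0, against 7.89%. This grouping was chosen after the values were seen. It was shared with other abundant genes, since 37.2% of the 1160 genes with a mean of 100 FPKM or more showed it, beside 46 of the 63 members at that level. After quantile normalisation, which gives all libraries the same distribution of values, 27 of 83 members showed it, against 10.6% of all tested genes and 18.1% of the abundant ones. Erythroid markers summed to 551 and 280.4 FPKM in PBS J and K, against 291 to 2235 FPKM in the other 6 libraries. The summed T and NK markers (6 genes, nearly all of the sum from Nkg7) reached 469 FPKM in PBS J and 464 in PBS K, above the 327 to 462 FPKM of the other libraries. Against PBS H and I, PBS J and K also had higher sums of monocyte and macrophage markers (73.1 and 62.7 against 36.0 and 35.5 FPKM), neutrophil markers (441 and 246 against 136 and 199) and megakaryocyte markers (144 and 148 against 95.8 and 90.2). In the monocyte and macrophage, neutrophil and megakaryocyte lists, PBS J and K did not stand above all treated libraries. Monocyte and macrophage markers summed to 60.4 and 57.1 FPKM in glucose and 252 and 53.8 in glucose+lipid. For neutrophil markers these sums were 143 and 217, and 64634 and 161. For megakaryocyte markers they were 168 and 135, and 171 and 138. B and plasma cell markers summed to 43.9 FPKM in PBS J and 42.3 in PBS K, within the 38.1 to 186 FPKM of the others. The part of these markers in the result was not tested. The median member deviated from its own 8-library mean by 0.20 log2 units in PBS J and 0.17 in PBS K. In the other libraries the median deviation was -0.02 and -0.11 in glucose, -0.06 and -0.04 in glucose+lipid, and -0.08 and -0.07 in PBS H and I.

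**Figure D2:**
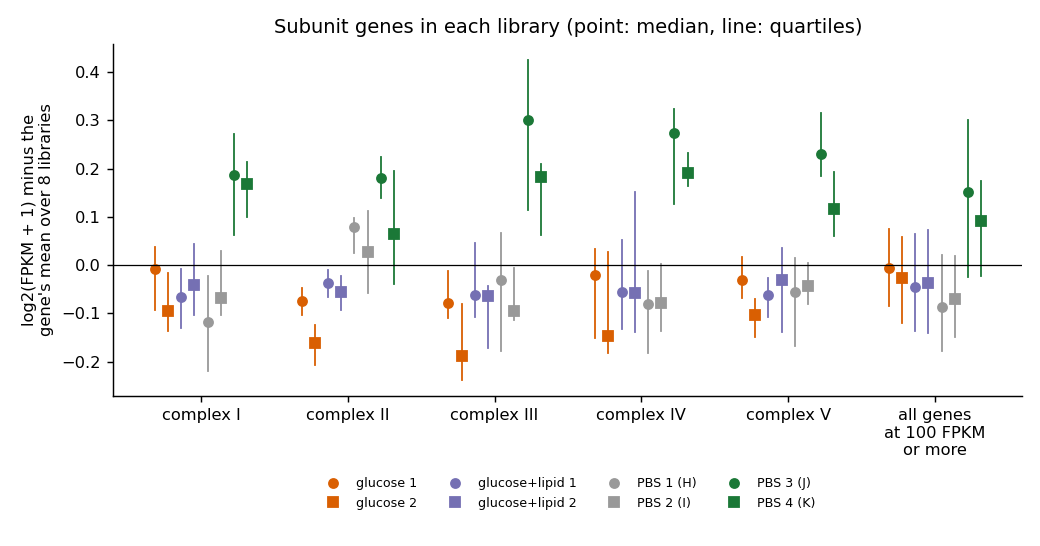
Deviation of log2(FPKM + 1) from each gene's mean over 8 libraries, by complex and library, with all tested genes of 100 FPKM or more at the right. Points are medians over genes and lines run between quartiles, with colours for the 4 groups of 2 libraries. PBS J and K lie above the other libraries in complexes I, III, IV and V, and the abundant genes as a whole show a smaller shift in the same libraries.

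The direct contrast of PBS J and K with the mean of the other 3 groups, added after seeing the data, again called 0 of 83 members. All tested genes gave 0.0587% called higher and 0.251% called lower there. The median member was 0.23 log2 units higher in PBS J and K, and 50 members had an unadjusted p under 0.05, where 19.8% of all genes did. The median of all tested genes was -0.01 and that of the genes of 100 FPKM or more 0.16. The lowest adjusted p from limma was 0.0607, for Uqcr11.

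Against PBS J and K, the 2 glucose libraries had lower values in most members of every complex. The median log2 fold change was -0.24 over all members, with 75 of 83 below 0, and -0.23, -0.29, -0.28, -0.28 and -0.24 for complexes I to V. Both glucose libraries lay below both PBS J and K in 58 of 83 members, against 24.8% of all tested genes and 49.2% of the abundant ones. They lay above in 2, Atp5l and Atp5s (22.3% of all genes). Against PBS H and I the median was 0.03, with 38 of 83 below 0, and 0.05, -0.15, -0.07, 0.05 and 0.01 for complexes I to V. Both glucose libraries lay below both PBS libraries in 16 members (20.5% of all genes) and above them in 15 (20.9%). Of the abundant genes, 12.9% lay below and 34.7% above, beside 22.2% and 17.5% of the abundant members. With all 4 PBS libraries as controls the median was -0.12.

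The values for glucose+lipid also depended on the control pair. Against PBS H and I the median log2 fold change was 0.03, with 36 of 83 members below 0, and by complex 0.02, -0.10, 0.03, 0.08 and 0.05 from I to V. Both treated libraries were below both PBS H and I in 22 members (21.8% of all genes) and above in 20 (22.2%). Of the abundant genes, 19.5% lay below and 30.9% above, beside 25.4% and 22.2% of the abundant members. Against PBS J and K the median was -0.26, with 76 of 83 below 0. There 57 members lay below without overlap (24.1% of all genes and 50.6% of the abundant ones). Above lay 3, Ndufs5, Cox6b2 and Atp5l (21.9% of all genes). Leaving out the neutrophil-rich glucose+lipid replicate 1 gave a median of 0.05 against PBS H and I. It left PBS J and K above the 5 other libraries in 50 members (13.8% of all genes and 41.1% of the abundant ones).

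Between the control pairs themselves, PBS H and I against J and K had a median of -0.27, with 72 of 83 members below 0, and 57 members lay below without overlap (25.3% of all genes and 58.8% of the abundant ones). Ndufb6, Sdhc and Atp5s lay above (24.4% of all genes). The complex medians were -0.27, -0.10, -0.14, -0.36 and -0.25 for I to V. These comparisons share libraries, so their values are set side by side and not correlated. The 2 treatments compared directly had a median of 0.02 with 37 members below 0. Both glucose+lipid libraries were above both glucose libraries in 15 members (17.1% of all genes) and below in 12 (16.2%).

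**Figure D3:**
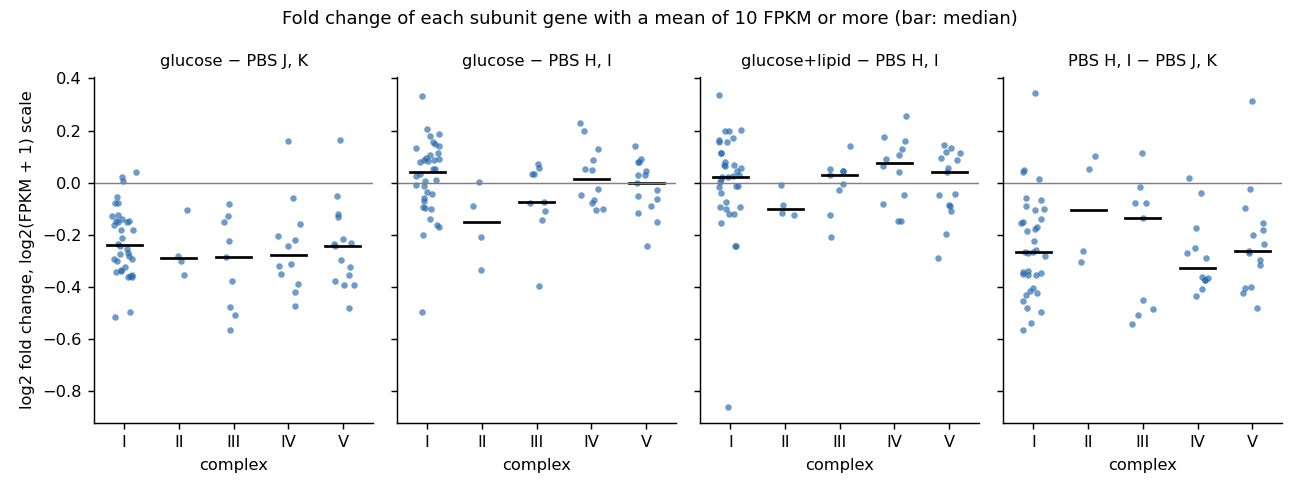
Log2 fold change on the log2(FPKM + 1) scale of each subunit gene with a mean of 10 FPKM or more, by complex, in 4 contrasts. Points are genes and bars are medians over the genes drawn. Medians lie below 0 in all 5 complexes where PBS J and K are the reference and lie near 0, for complexes I, III, IV and V, where PBS H and I are.

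The difference of the glucose+lipid effect and the glucose effect, each against its own inferred controls, had a median of 0.25 over the members, with 9 of 83 below 0. No member passed the test, the lowest adjusted p from limma being 0.284 for Ndufb3. Of all genes, 0.00838% were called in each direction, and the abundant genes had a median of 0.20. This value contains the difference between the control pairs and cannot be told apart from it. Treated against PBS within control pairs gave a median of -0.12 with 74 of 83 members below 0, and 0 members called (0.268% of genes called higher, 0.0% lower). This contrast averages each treatment against its inferred pair, with medians of -0.24 for glucose and 0.03 for glucose+lipid. It thus contains the high values of PBS J and K. Against PBS H and I the glucose median was 0.03. All 4 treated libraries lay below all 4 PBS libraries in 5 members, against 2.84% of all genes, and above in 0, against 3.55%. They included Ndufa10, Ndufs6, Cox7b and Atp5a1.

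Within complex I, 22 of 37 members had PBS J and K above the rest (12.0% of all tested genes and 37.2% of the abundant ones). These included 5 of the 7 core subunits and 16 of the 29 accessory ones, and Ndufa4. Ndufb8 and Ndufa7, both abundant accessory subunits, were among them, with 703 and 772 FPKM against 566 to 644, and 514 and 558 FPKM against 430.0 to 501. Ndufs6, an accessory subunit of the electron-input arm, had 149.7 and 158 FPKM in glucose, 159 and 159 in glucose+lipid, 160.0 and 179.8 in PBS H and I, and 222 and 212 in PBS J and K. Glucose was thus lowest and PBS J and K highest, with no overlap. Ndufs6 (chr13:73319838-73328542, minus strand, GRCm38) overlaps Mrpl36 on the opposite strand, and no source states strand-aware counting, so reads of the overlap cannot be told apart. The log2 fold change was -0.49 (SE 0.09) against PBS J and K, with an adjusted p of 0.159 in limma, and -0.14 (SE 0.09) against PBS H and I.

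Ndufb2, a small accessory subunit of the membrane arm, had 279 and 306 FPKM in glucose, 271 and 293 in glucose+lipid, 244 and 262 in PBS H and I, and 389.5 and 361 in PBS J and K. Here PBS H and I were the lowest libraries. The gene (chr6:39592574-39603382) likewise overlaps Braf on the opposite strand. Its log2 fold change between the PBS pairs was -0.57 (SE 0.10), with an adjusted p of 0.0986 in limma, the lowest of any member in that comparison. Among the core subunits, Ndufs7, which holds an iron-sulfur cluster near the coenzyme Q site, had 264 to 327 FPKM outside PBS J and K and 392 and 346 FPKM in them.

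Some complex I members did not follow this order. Ndufb6, a membrane arm subunit, had 589 and 301 FPKM in glucose, 332 and 321 in glucose+lipid, 601 and 587 in PBS H and I, and 562 and 388 in PBS J and K. It was lower in both glucose+lipid libraries than in any PBS library, while the 2 glucose libraries spanned nearly the whole range. Its log2 fold change for glucose+lipid against PBS H and I was -0.86 (SE 0.29), with an adjusted p of 0.338 in limma. Ndufa6, Ndufc2 and Ndufb4 had log2 fold changes of 0.02, 0.04 and 0.01 (SE 0.14 each) for glucose against PBS J and K. Ndufab1, the mitochondrial acyl carrier protein, had 31.0 FPKM in PBS J and 18.2 in PBS K, against 13.8 to 19.3 FPKM in the other 6.

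Ndufs5, an accessory subunit, stood apart from the rest of the set. It was listed at 20.2 and 20.9 FPKM in glucose+lipid and at 11.7 FPKM in glucose replicate 2. It was listed at values near 0 in glucose replicate 1 and in all 4 PBS libraries, between 1.91e-03 and 3.89e-03 FPKM. Such a value for a subunit of every complex I can be a failed estimate, so its mean is no reliable level. The log2 fold change for glucose+lipid against PBS H and I was 4.43 (SE 0.95), with an adjusted p of 0.216 in limma. Without glucose replicate 1 its adjusted p was 0.00126 for glucose+lipid against PBS H and I and 0.00972 for glucose against PBS J and K. Without glucose replicate 2 the former was 0.00218. Each of these fits leaves 1 glucose library, which is assumed to vary like the other groups, and drops the pair of glucose libraries that disagree in this gene, so the small p rests on the spread of the other groups. Of its 50-base words, 21.7% occur in transcripts of another gene, 1 annotated pseudogene, whose part was not tested.

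**Figure D4:**
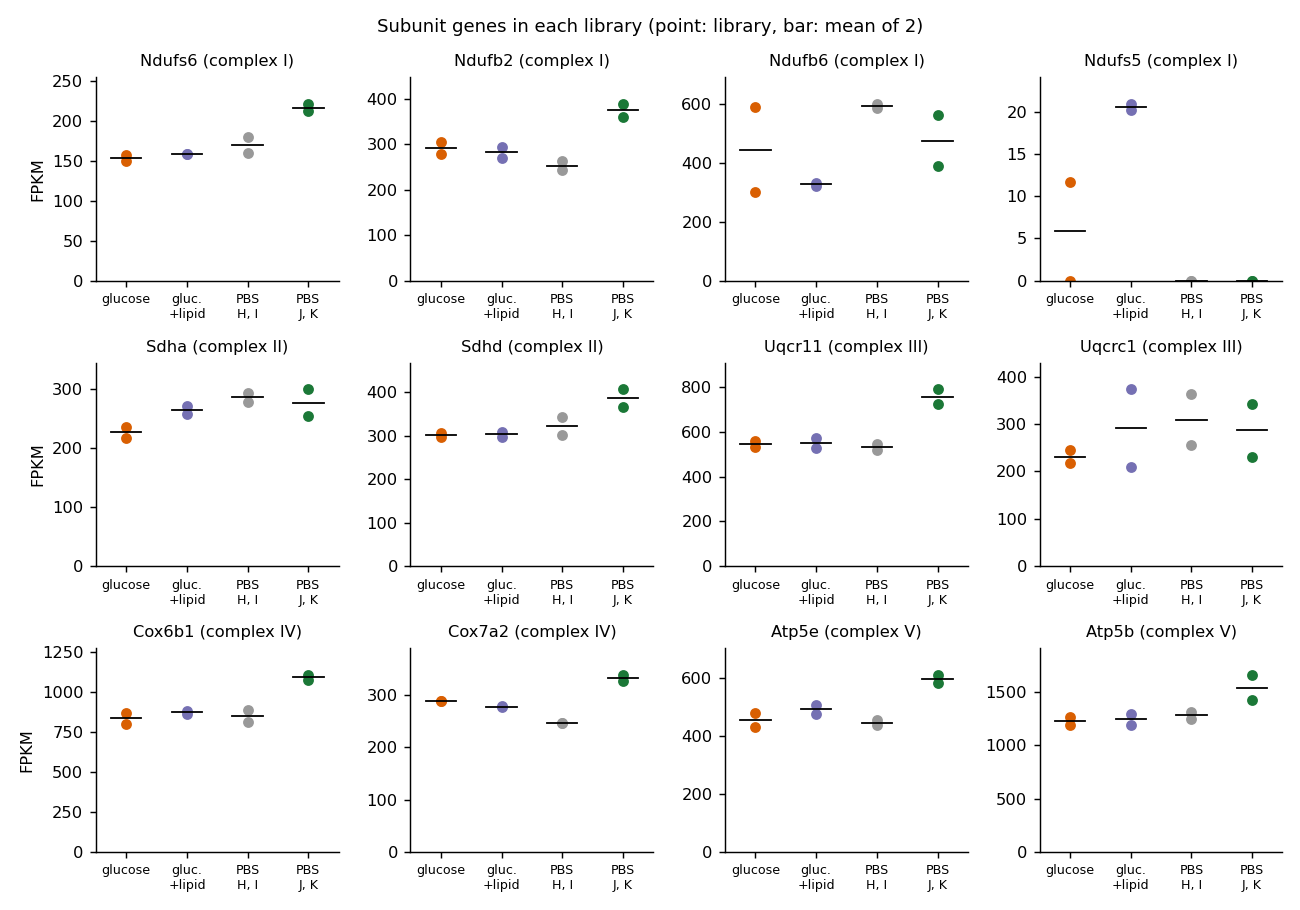
FPKM of 12 subunit genes in each library, by group, with axes from 0. Points are libraries and bars the mean of 2. Ndufs6, Ndufb2, Sdhd, Uqcr11, Cox6b1, Cox7a2, Atp5e and Atp5b are highest in PBS J and K, while Ndufb6, Ndufs5, Sdha and Uqcrc1 are not separated in that way.

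Complex II, which also serves the citric acid cycle, was split. PBS J and K were above the rest in 2 of its 4 genes (12.0% of all tested genes). All 4 have a mean of 100 FPKM or more, a level at which 37.2% of tested genes showed it. Sdhb, the iron-sulfur subunit, had 295 to 312 FPKM outside PBS J and K and 360.0 and 392 FPKM in them. Sdhd, a membrane anchor, had 307 and 297 FPKM in glucose, 298 and 308 in glucose+lipid, 343 and 302 in PBS H and I, and 407 and 366 in PBS J and K. For both, PBS J and K were highest without overlap.

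Sdha, the flavoprotein that oxidises succinate, had 237 and 217 FPKM in glucose, 271 and 257 in glucose+lipid, 279 and 294 in PBS H and I, and 299.8 and 254 in PBS J and K. The glucose libraries were the lowest 2 of the 8. Its log2 fold change for glucose was -0.28 (SE 0.11) against PBS J and K and -0.33 (SE 0.11) against PBS H and I, with adjusted p of 0.295 and 0.607 in limma. Sdhc, the other membrane anchor, had 107 and 94.5 FPKM in glucose, 106 and 107 in glucose+lipid, 117 and 115 in PBS H and I, and 111 and 105 in PBS J and K. Its fold changes for glucose were -0.10 and -0.21 against the respective PBS pairs. Against PBS H and I, Sdhb gave 0.00 (SE 0.09) and Sdhd -0.09 (SE 0.10) for glucose.

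In complex III, PBS J and K were above the rest in 3 of 5 small subunits and in 1 of 4 core subunits (12.0% of all tested genes). All 9 have a mean of 100 FPKM or more. Of the complex III members 44.4% showed the pattern, beside 37.2% of tested genes at that level. The difference between the small and core subunits was not tested. Uqcr11 (chr10:80402997-80406830), a small subunit, had 558 and 532 FPKM in glucose, 528 and 572 in glucose+lipid, 521 and 545 in PBS H and I, and 792 and 726 in PBS J and K. The other 6 libraries spanned 521 to 572 FPKM, well below PBS K. The log2 fold change was -0.48 (SE 0.09) for glucose against PBS J and K, with an adjusted p of 0.159 in limma, and 0.03 (SE 0.09) against PBS H and I.

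Uqcr10, another small subunit, had 457 to 539 FPKM outside PBS J and K and 657 and 642 FPKM in them. Uqcrq, a small subunit named as ubiquinone-binding, had 303 to 347 FPKM outside them and 532 and 399 FPKM in PBS J and K, so that PBS J stood above PBS K. Cyc1, the cytochrome c1 of the core, had 245 and 218 FPKM in glucose, 273 and 234 in glucose+lipid, 258 and 230.2 in PBS H and I, and 382 and 306 in PBS J and K. Its log2 fold change for glucose against PBS J and K was -0.56 (SE 0.14), with an adjusted p of 0.204 in limma.

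The other core subunits varied otherwise. Uqcrc1 had 245 and 217 FPKM in glucose, 373 and 209 in glucose+lipid, 363 and 255 in PBS H and I, and 342 and 231 in PBS J and K. Each of the last 3 groups held 1 high and 1 low library, so that replicates differed more than group means. Uqcrc2, its partner in the core, held to 129 to 143 FPKM in all 8 libraries, the narrowest range of the abundant members relative to level. Uqcrfs1, the Rieske iron-sulfur protein, had 156 and 135 FPKM in glucose, 174 and 153 in glucose+lipid, 159 and 161 in PBS H and I, and 172 and 166 in PBS J and K. Glucose, PBS H and I, and PBS J and K followed each other upward without overlap, and glucose+lipid overlapped all of them. Uqcrh, the hinge protein that meets cytochrome c, ran from 342 to 451 FPKM, with the groups overlapping. Cycs, the carrier to complex IV, had 4.60 and 2.86 FPKM in glucose, 3.36 and 2.65 in glucose+lipid, 4.62 and 5.29 in PBS H and I, and 4.80 and 3.30 in PBS J and K. At these low listed values both treatments lay below PBS H and I without overlap, as 20.5% of all genes did for glucose and 21.8% for glucose+lipid. For glucose the nearest values were 4.60 and 4.62 FPKM. Both treatments overlapped PBS J and K. The log2 fold change for glucose+lipid against PBS H and I was -0.58 (SE 0.26), with an adjusted p of 0.438 in limma.

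Complex IV had the largest median difference between the control pairs (-0.36). Of its 16 members, 9 had PBS J and K above the rest (12.0% of all tested genes). These were the 9 with a mean of 100 FPKM or more, a level at which 37.2% of tested genes showed it. Cox6b1, which joins the monomers of the enzyme, had 871 and 800.02 FPKM in glucose, 865 and 881 in glucose+lipid, 889 and 812 in PBS H and I, and 1108 and 1076 in PBS J and K. The 6 other libraries overlapped fully. The log2 fold change for glucose was -0.39 (SE 0.09) against PBS J and K, with an adjusted p of 0.204 in limma, and -0.03 against PBS H and I.

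Cox5a, a matrix-side subunit, had 459 and 413 FPKM in glucose, 425 and 388 in glucose+lipid, 454 and 445 in PBS H and I, and 624 and 544 in PBS J and K. Cox5b, which binds zinc, had 87.8 to 114 FPKM outside PBS J and K and 134 FPKM in both. Cox7a2 had 288 and 290.0 FPKM in glucose, 277 and 280.2 in glucose+lipid, 246 and 247 in PBS H and I, and 339 and 327 in PBS J and K. In this gene the treated libraries lay between the control pairs, giving glucose a log2 fold change of -0.20 (SE 0.08) against one pair and 0.23 (SE 0.08) against the other. Cox7a2l, which takes part in supercomplex assembly, had 64.1 to 88.8 FPKM and a log2 fold change of 0.16 (SE 0.15) for glucose against PBS J and K, a sign opposite to most members. Cox6b2 had -0.06 in that comparison.

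Complex V had the highest share of members with PBS J and K above the rest, 12 of 16 (12.0% of all tested genes and 37.2% of the abundant ones). They were 4 of 5 subunits of the catalytic head, both detected c-ring genes, all 4 of the peripheral stalk and 2 of 3 membrane accessory ones. Neither Atp5s nor Atp5sl was among them. Of the 12 complex V members with a mean of 100 FPKM or more, all but Atp5a1 showed it. In complex IV all 9 members at that level did. Atp5e, the small epsilon subunit of the head, had 480.0 and 432 FPKM in glucose, 478 and 506 in glucose+lipid, 454 and 437 in PBS H and I, and 583 and 612 in PBS J and K. The log2 fold change for glucose was -0.39 (SE 0.09) against PBS J and K, with an adjusted p of 0.204 in limma, and 0.03 (SE 0.09) against PBS H and I.

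Atp5b had 1265 and 1196 FPKM in glucose, 1296 and 1197 in glucose+lipid, 1316 and 1254 in PBS H and I, and 1665 and 1423 in PBS J and K. Atp5j, a coupling subunit of the peripheral stalk, had 453 to 528 FPKM outside PBS J and K and 576 and 572 FPKM in them. Atp5a1, the non-catalytic partner of Atp5b, had 544 and 502 FPKM in glucose, 508 and 482 in glucose+lipid, 572 and 562 in PBS H and I, and 653 and 565 in PBS J and K. All 4 PBS libraries were above the 4 treated ones, and the fold changes were -0.22 (SE 0.10) for glucose against PBS J and K and -0.20 (SE 0.10) for glucose+lipid against PBS H and I. The adjusted p was 0.372 and 0.489 in limma. Atp5k, a membrane subunit of the dimer interface, had 216 and 264 FPKM in glucose, 312 and 278 in glucose+lipid, 279 and 286 in PBS H and I, and 336 and 331 in PBS J and K. Its glucose libraries were the lowest of the 8, with log2 fold changes of -0.48 and -0.24 (SE 0.11 each) against the respective PBS pairs.

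Across the abundant members the total spread was modest. In the 63 members with a mean of 100 FPKM or more, the highest library was a median 1.37 times the lowest, with quartiles of 1.30 and 1.44, against 1.41 for all 1160 abundant genes. The ratio passed 1.5 in 11 of them and was largest in Ndufb6 (2.00). PBS J and K were not both above the rest in 17 of the 63. Of the 20 members under 100 FPKM, 3 had PBS J and K above the rest, namely Ndufs3, Ndufa11 and Atp5g1. Over all tested genes the share was 12.0%.

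Other genes of the pathway gave no call in the comparisons of treatments and control pairs. For glucose against PBS J and K, 11 of 11 tested complex I assembly factors had values below 0, with a median of -0.30. So did 18 of 22 assembly factors of complexes II to IV (median -0.22), 9 of 13 coenzyme Q synthesis genes (-0.20), 13 of 16 inner membrane carriers and cristae genes (-0.23) and 10 of 15 nuclear regulators and mitochondrial transcription genes (-0.11). For glucose+lipid against PBS H and I the same lists had medians of -0.07, 0.06, -0.12, -0.11 and -0.07. All tested genes had medians of 0.00 and 0.01 in these comparisons. Of the abundant genes, 49.2% lay below PBS J and K without overlap in glucose. That is a stricter mark than a value below 0, so it is no like background for the counts above. Each treatment is set here against its inferred controls only. These list medians therefore contain the difference between the control pairs and do not separate glucose from glucose+lipid. The most abundant assembly factors, Cox17 (178 FPKM), a copper chaperone of complex IV, and Coa3 (171 FPKM), had values of 0.10 and 0.25 for glucose+lipid against PBS H and I. The 3 factors of ATP synthase were below 0 for glucose against PBS J and K (median -0.23). Usmg5 and 2010107E04Rik had log2 fold changes of -0.34 and -0.44 for glucose against PBS J and K.

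Slc25a5, an ADP/ATP carrier, was the most abundant of the carriers, with 1182 and 862 FPKM in glucose, 942 and 836 in glucose+lipid, 1096 and 1020 in PBS H and I, and 1590 and 1137 in PBS J and K. Atpif1, the inhibitor that stops ATP synthase running in reverse, had 801 and 806 FPKM in glucose, 804 and 821 in glucose+lipid, 734 and 736 in PBS H and I, and 899 and 987 in PBS J and K. PBS J and K were above the rest in Atpif1, while in Slc25a5 glucose replicate 1 lay above PBS K. Gabpb1, a subunit of the ETS factor that binds respiratory gene promoters, was the most abundant regulator and had a log2 fold change of 0.05 for glucose against PBS J and K. Pprc1, a coactivator of the PGC-1 family, had 33.5 and 27.6 FPKM in glucose, 29.8 and 29.3 in glucose+lipid, 32.6 and 29.3 in PBS H and I, and 47.7 and 43.7 in PBS J and K. Its log2 fold change was -0.57 for glucose against PBS J and K and -0.07 for glucose+lipid against PBS H and I. Ppargc1a, the founding member of that family, averaged 0.677 FPKM and was not tested.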

How the data were processed

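RNA from sorted LSK cells was made into cDNA with SMART-Seq HT and into libraries with Nextera XT, per the labels' protocols. The submitters' processing notes list Cuffnorm 2.2.1, SAMtools 1.0, Bowtie2 2.2.3 and TopHat2 2.0.13 with mm10. Settings, annotation and strand handling are not given there. The authors deposited FPKM per gene symbol for 8 libraries, a unit read from the values and from Cuffnorm's use. No count table was used, so depth is an estimate from the steps between low values of single-transcript genes.

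Genes with 1 FPKM or more in at least 2 libraries were tested on log2(FPKM + 1), which understates the change of low genes, with limma 3.58.1 in R 4.3.3 (mean-variance trend, 4 groups of 2 in 1 fit, 2-sided, Benjamini-Hochberg at 0.05). The fit had 4 residual degrees of freedom, and its glucose against PBS J and K contrast was tested on simulated data. Treated against PBS was a separate fit with the control pair as a block and 5 residual degrees of freedom. PBS H, I, J and K are PBS replicates 1, 2, 3 and 4. The members and gene lists were chosen with earlier results of these data known. Genes were named by a rule: all of complex II, Cycs, Cyc1, paralog sets, called members, and per complex the 4 highest levels and the 2 lowest and 1 highest fold change in each treatment comparison among means of 3 FPKM or more. For other lists the rule took the 2 highest levels. Ndufa6, Ndufa10, Ndufa11, Ndufb2, Ndufb3, Ndufb4, Ndufc2, Ndufs3, Ndufs7, Uqcrc2, Uqcrfs1, Cox7b, Cox7c, Atp5e and Atp5h were chosen after their values were seen. The values of 1 member are not reported here. Positions and 50-base words come from GENCODE vM21 (GRCm38) and promoters from RefSeq. Opposite-strand overlaps like those of Ndufs6 and Ndufb2 occur in other members too. Among them are Ndufb6 (with Smim27), Sdha (Gm16125), Atp5a1 (Haus1) and Atp5j (Gabpa). Alternatives were other pseudocounts, filters, scalings and controls, single libraries left out and a replicate block.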

Additional observations from a re-analysis of the deposited data

How the results depend on the processing

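With 2 libraries a group, and depths estimated rather than given, small differences could not be resolved, and members listed near 0 carry no reliable level. The median log2 fold change of the members for glucose against PBS J and K was -0.16 after quantile normalisation, 0.027 against PBS H and I, and -0.12 against all 4 PBS libraries. For glucose+lipid against PBS H and I it was -0.072 after quantile normalisation, -0.26 against PBS J and K, and -0.10 against all 4. The difference of effects was 0.088 after quantile normalisation. PBS H and I against J and K gave -0.32 after library median scaling and -0.094 after quantile normalisation. After quantile normalisation 27 members had PBS J and K above the rest (10.6% of all genes and 18.1% of the abundant ones). Fitting only the 4 libraries of the glucose+lipid comparison called 1 member higher, Ndufs5, with an adjusted p of 0.0108 in limma. The cause of these shifts was not tested.

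Leaving out 1 library at a time gave medians of -0.30 to -0.20 for glucose, 0.01 to 0.05 for glucose+lipid, 0.22 to 0.29 for the difference of effects, -0.27 to -0.23 between the PBS pairs, -0.024 to 0.047 for glucose+lipid against glucose, and -0.16 to -0.074 for treated against PBS. Members called higher ranged from 0 to 1, the 1 being Ndufs5. PBS J and K stood above the rest in 49 to 50 members without any 1 of the other 6 libraries (13.0% to 13.8% of all genes), 57 without PBS J (18.7%) and 55 without PBS K (24.7%). Over all tested genes, calls of higher genes ranged from 1 to 254 for glucose+lipid against PBS H and I, against 7 with all libraries, the 254 without glucose+lipid replicate 2. They ranged from 7 to 27 for glucose, against 11, and from 8 to 32 for treated against PBS. A replicate block in the glucose+lipid comparison gave a median of 0.03 and 0 members called. The correlation of deviations of same-numbered libraries was 0.07 there. That value, taken over genes with 2 libraries a group, cannot show whether the numbers paired the samples. Glucose shares no number with PBS J and K. Dropping Atp5s, Atp5sl and Cox4nb and moving Ndufa4 to complex IV left the medians within the spread between libraries.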
